A study of Homo sapiens with 23 samples.

Results

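The genes described here are those of the respiratory chain and ATP synthase, from both the nuclear and the mitochondrial genome, in SUDHL5, an established human cell line from a diffuse large B-cell lymphoma with germinal centre character. They were chosen by symbol among the protein-coding genes of the annotation: symbols starting NDUF, UQCR, ATP5 or MT-, symbols starting COX followed by 4, 5, 6, 7 or 8, and SDHA, SDHB, SDHC, SDHD and CYC1. The rule found 113 genes of 58592 in the table, 13 encoded in mitochondrial DNA and 100 in the nucleus. Of these, 107 passed the filter on low counts and were tested, all 13 mitochondrial genes and 94 nuclear genes. The 6 untested genes were COX4I2, COX6A2, COX7A1, COX7B2 and COX8C, isoforms of cytochrome c oxidase subunits known from other tissues, and the ATP synthase paralog ATP5MGL. Besides genes listed here as subunits, the rule took in 8 complex I assembly factors named NDUFAF and 3 other genes. These were ATP5S and the read-through loci ATP5MF-PTCD1 and NDUFC2-KCTD14. The genes listed as subunits include the ATP synthase inhibitor ATP5IF1, COX7A2L and UQCRHL.

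Poly(A) RNA was sequenced in 23 libraries of 9 groups. CDK-TCIP1 is a bivalent compound: 1 end binds the BTB domain of BCL6 and the other is a CDK9 inhibitor. Cells received it at 30 nM for 4 h in 3 libraries. The 2 h groups were 10 nM in 2 libraries, 30 nM in 4 and 100 nM in 3. BCL6 is a transcriptional repressor needed by germinal centre B cells, and CDK9 phosphorylates RNA polymerase II for elongation. Neg1 (BAK-04-054) and Neg2 (BAK-04-066) served as control compounds at 30 nM, with 2 libraries of each compound per time, and how they differ in structure is not in the labels. The vehicle DMSO had 3 libraries, all of 4 h. Setting 2 h libraries against DMSO therefore mixes time with compound, and all comparisons with DMSO share those 3 libraries. The labels do not say whether replicate libraries came from separate cultures, so a p-value here reflects how far these samples spread, and that spread may be technical.

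The respiratory chain passes electrons from NADH and succinate to oxygen through complexes I to IV of the inner mitochondrial membrane, and ATP synthase uses the resulting proton gradient to make ATP. Complexes I, III, IV and ATP synthase are mosaics: some of their subunits are encoded in mitochondrial DNA. The other subunits and all of complex II come from nuclear genes. Nuclear members are transcribed by RNA polymerase II, and the mitochondrial genes by the separate polymerase POLRMT as long transcripts that are cut into individual RNAs, most of which receive short poly(A) tails.

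Some members share sequence with another member, which limits how far their values stand on their own. MT-ATP8 (chromosome M, 8366 to 8572, GRCh38) and MT-ATP6 (8527 to 9207), subunits of ATP synthase, are read from 1 RNA and overlap by 46 bases. This is 22.2% of MT-ATP8 and 6.75% of MT-ATP6. The last 60 bases of the first and the first 60 of the second are shown with the shared bases in capitals, since reads from them cannot be given to either gene alone.
MT-ATP8: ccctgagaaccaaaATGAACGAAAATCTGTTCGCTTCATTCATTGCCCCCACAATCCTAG
MT-ATP6: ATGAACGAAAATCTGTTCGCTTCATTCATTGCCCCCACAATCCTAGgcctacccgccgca
MT-ND4L and MT-ND4, subunits of complex I, overlap by 7 bases in the same way. UQCRH (chromosome 1, 46303631 to 46316776), the hinge subunit of complex III, has a near-identical copy at UQCRHL (chromosome 1, 15807169 to 15809348). Their coding sequences of 276 bases are printed with the differing bases in capitals, because the 4 differences are all that separates reads of the 2 genes within the coding part.
UQCRH: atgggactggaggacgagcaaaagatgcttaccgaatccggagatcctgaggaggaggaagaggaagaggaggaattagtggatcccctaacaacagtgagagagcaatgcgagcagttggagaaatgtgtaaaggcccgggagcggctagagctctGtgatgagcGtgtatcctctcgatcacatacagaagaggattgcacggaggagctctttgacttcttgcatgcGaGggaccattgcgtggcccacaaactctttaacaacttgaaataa
UQCRHL: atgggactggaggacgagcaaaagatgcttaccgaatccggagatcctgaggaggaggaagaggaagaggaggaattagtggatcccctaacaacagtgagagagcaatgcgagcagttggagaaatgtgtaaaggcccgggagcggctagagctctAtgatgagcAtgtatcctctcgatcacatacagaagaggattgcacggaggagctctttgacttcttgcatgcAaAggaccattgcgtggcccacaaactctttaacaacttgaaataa
Counted from 1 at the coding start, with the UQCRH base first, the differences are G158A, G167A, G231A and G233A. The 2 sequences are 98.6% identical and share a run of 157 bases without a difference. The values of UQCRHL are therefore uncertain.

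In DMSO, mitochondrially encoded genes stood above nuclear members per length. Abundance in TPM, the authors' unit per length and depth, ran from 1925 for MT-ND5 to 18377 for MT-CO2 among the former. Among the latter the highest were ATP5MD at 1058 TPM, a small ATP synthase subunit now named ATP5MK, COX6A1 at 902 TPM and UQCRH at 858 TPM. NDUFAF1, an assembly factor of complex I, had 11.3 TPM and the complex I subunit NDUFV3 11.5 TPM. Per library, 4.72 to 6.84% of counts fell on the mitochondrial genes and 0.924 to 1.26% on the nuclear members.

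Mitochondrially encoded members were higher with 30 nM CDK-TCIP1 at 4 h than with DMSO or either control compound. Levels are given in CPM, a gene's counts relative to the library size after TMM scaling, which sets the bulk of genes to no change, and a log2 fold change is a difference between groups on that scale. A gene is called where the adjusted p of the edgeR quasi-likelihood test, with Benjamini-Hochberg adjustment over 17743 genes, was under 0.05. In bulk RNA, fewer cells of a type and less RNA per cell cannot be told apart. Summed over the 13 genes, the 3 CDK-TCIP1 libraries had 58371 to 61632 CPM, the 3 DMSO libraries 46941 to 51828, the 2 Neg1 libraries 46059 and 47788 and the 2 Neg2 libraries 46200 and 47851. The treated libraries did not overlap with any of the 3 control groups. Nuclear members summed to 10897 to 11200 CPM with CDK-TCIP1, against 9356 to 10234 with DMSO, 9789 to 10091 with Neg1 and 10102 to 10732 with Neg2, again without overlap.

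**Figure D1:**
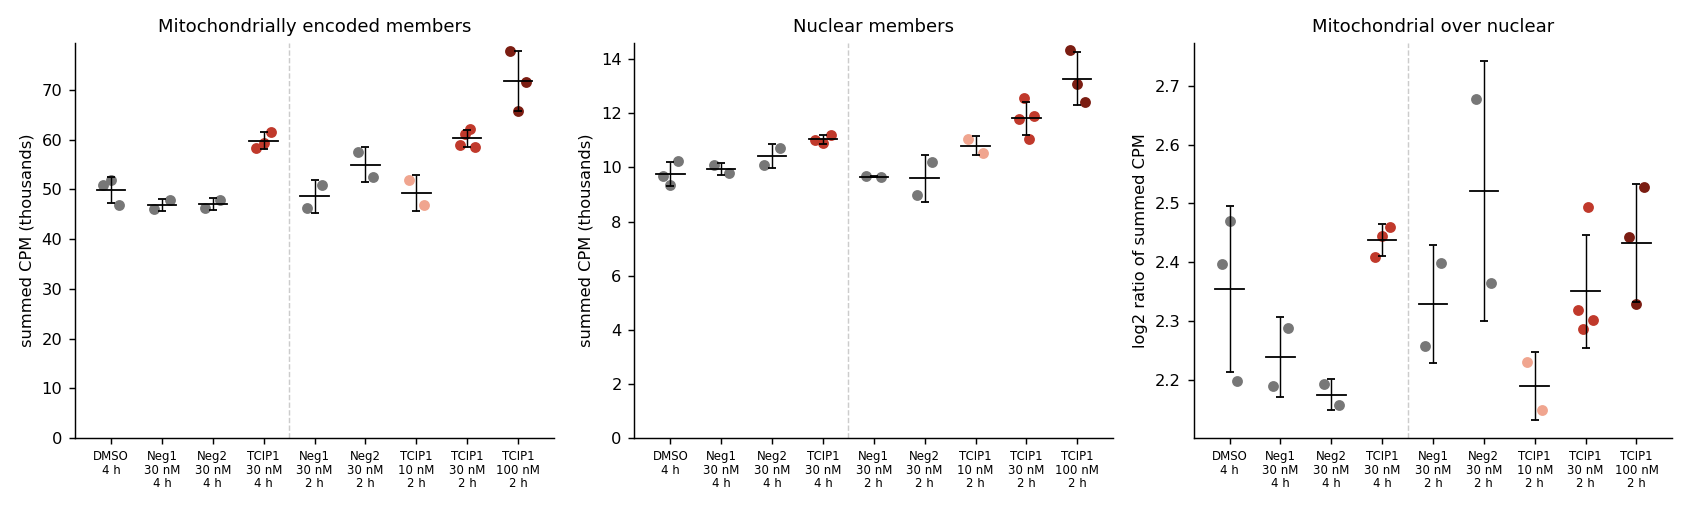
Summed CPM (axis units as labelled) of the 13 mitochondrially encoded and the 100 nuclear members, and the log2 ratio of the 2 sums, by group; each point is a library, bars are the mean and SD, and the ratio axis does not start at 0. At 30 nM and 4 h the mitochondrial sum of 58371 to 61632 CPM lies above all control libraries of that time. The ratio of 2.41 to 2.46 overlaps with DMSO and lies above Neg1 and Neg2 of 4 h.

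Of the 13 mitochondrial genes, 10 rose and 0 fell against DMSO at 4 h, where 17.5% of all genes tested were called higher and 19.3% lower. Because the 13 genes are cut from long shared transcripts, their calls are not 13 separate events. The median log2 fold change was 0.21, and it was 0.03 over all genes. Against Neg1, 11 rose and 0 fell (background 14.2% higher and 16.9% lower), with a median of 0.37. Against Neg2, 11 rose and 0 fell (14.4% higher and 16.8% lower), with a median of 0.35. The same 9 genes were called in all 3 comparisons: MT-CO1, MT-CO2, MT-CO3, MT-CYB, MT-ND1, MT-ND2, MT-ND4, MT-ND5 and MT-ATP6. The 3 comparisons share the treated libraries. The share of all genes called higher in all 3 is not given here and is at most the 14.2% against Neg1. The call of 10 against DMSO fell to 6 without DMSO replicate 3 and to 5 without CDK-TCIP1 replicate 3, and MT-CO1, MT-CO2, MT-CO3 and MT-ND5 were called whichever library was left out.

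MT-CO3 (chromosome M, 9207 to 9990), a core subunit of cytochrome c oxidase, the complex that reduces oxygen, had 6403, 6486 and 5892 CPM in DMSO and 7801, 7662 and 8242 CPM in CDK-TCIP1. The Neg1 libraries of 4 h had 6255 and 6514 CPM and the Neg2 libraries 6268 and 6558 CPM. Every treated library was above every control library. It rose by 0.34 ± 0.068 (log2, ± SE) against DMSO (edgeR, adjusted p = 0.000289, n = 3 and 3), by 0.31 against Neg1 and by 0.30 against Neg2. MT-CO1 (5904 to 7445), the catalytic subunit of the same complex, had 15730, 15783 and 13827 CPM in DMSO and 17898, 18284 and 18147 CPM in CDK-TCIP1, with no overlap. Its log2 fold change was 0.26 ± 0.063 (adjusted p = 0.00182). MT-CO2, which accepts electrons from cytochrome c, went from 6564, 6508 and 6021 CPM to 8016, 7855 and 8083 CPM, a rise of 0.33 ± 0.065 (adjusted p = 0.00024).

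Complex I genes of the mitochondrial genome were less even. MT-ND5 (12337 to 14148), a subunit of its proton-pumping membrane arm, had 2462, 2717 and 2326 CPM in DMSO and 2958, 3094 and 3084 CPM in CDK-TCIP1 without overlap, and rose by 0.28 ± 0.058 (adjusted p = 0.000325). MT-ND3 (10059 to 10404), another membrane arm subunit, had the largest rise of the 13 genes against DMSO, from 688, 706 and 784 to 1054, 869 and 1324 CPM (0.58 ± 0.15, adjusted p = 0.00425). The control compounds did not share the DMSO level: Neg1 had 1173 and 925 CPM at 4 h and Neg2 979 and 1155. Against them the log2 differences were 0.05 and 0.02, and neither was called. MT-ND3 also lost its call against DMSO without CDK-TCIP1 replicate 3 (adjusted p = 0.0517). MT-ND6 (14149 to 14673) is encoded on the opposite strand to the other 12. It was not called against DMSO (0.18, adjusted p = 0.067) and was called against Neg1 (0.39) and Neg2 (0.35). MT-ATP8 and MT-ND4L, whose reads overlap with their neighbours, were not called against DMSO.

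RNA of the large mitochondrial ribosomal subunit, MT-RNR2, is not a member and lies upstream on the same transcript. It moved the same way, from 6656 to 6779 CPM in DMSO to 8089 to 8229 CPM in CDK-TCIP1 at 4 h. Nuclear pseudogene copies of the mitochondrial genes, 394 in the annotation, held 0.146 to 0.213% of the summed counts in any library and 2.14 to 3.19% for MT-ATP6. MT-ATP6 was the 1 mitochondrial gene that lost its call when the copies' counts were added to it.

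**Figure D2:**
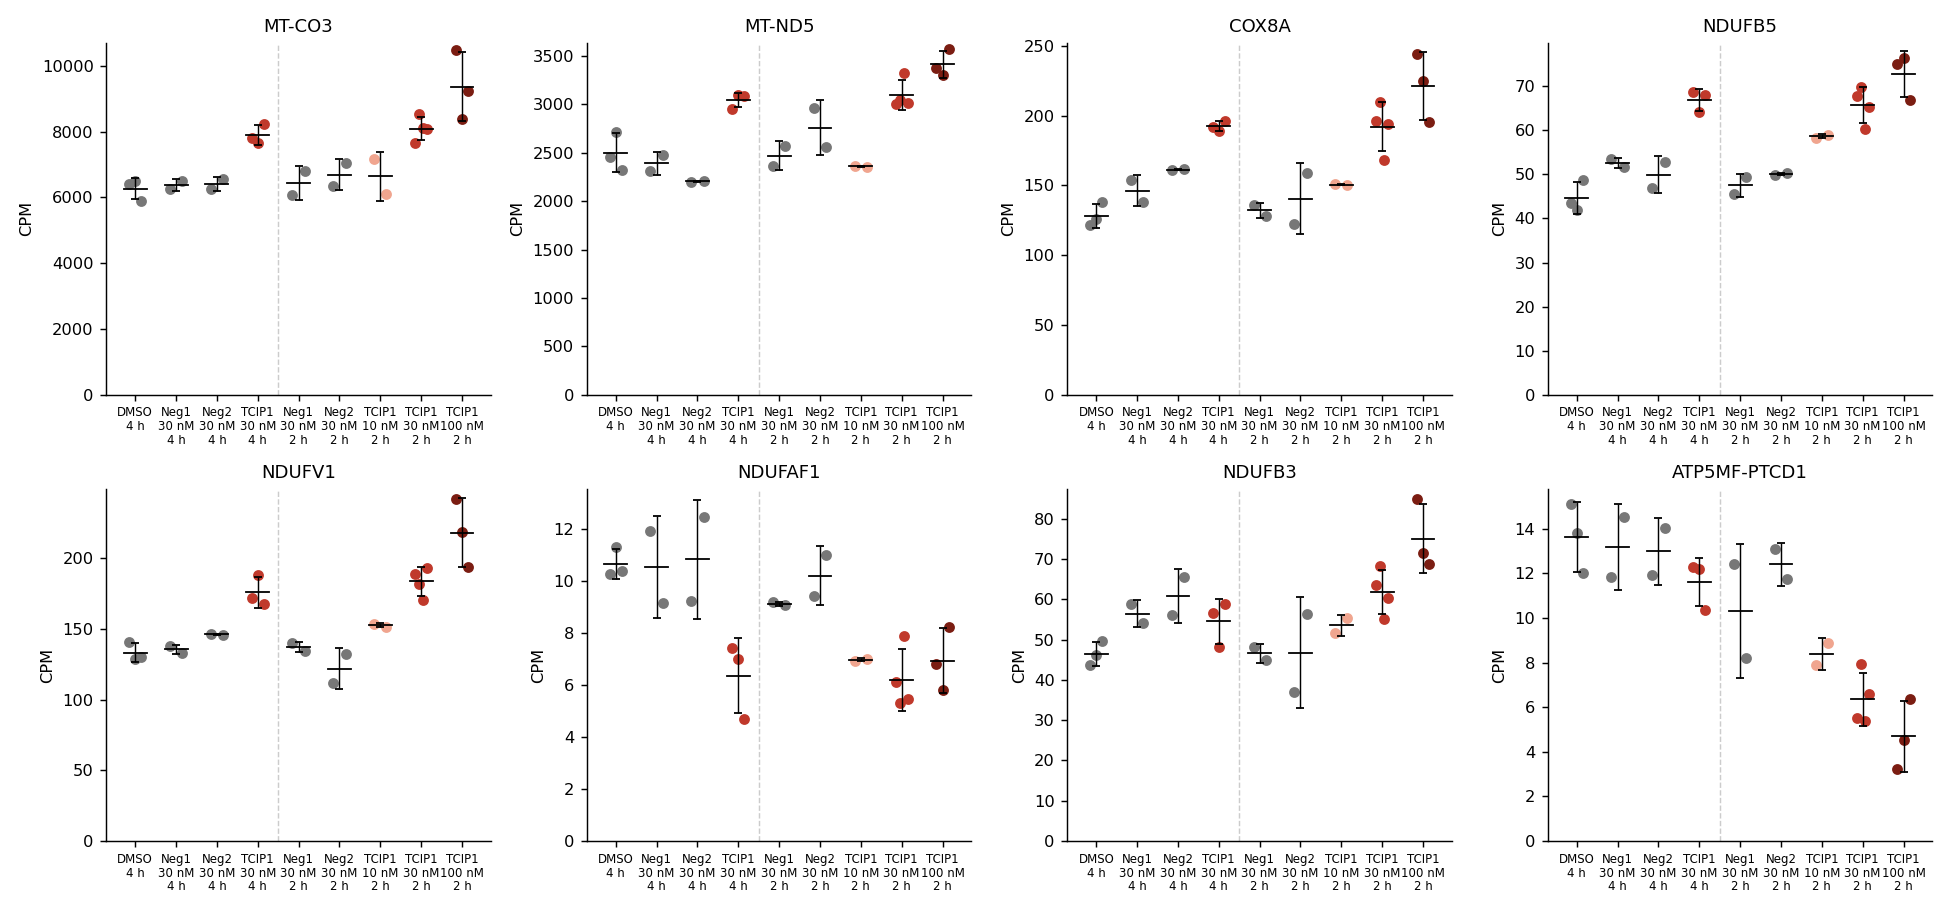
CPM of 8 members by library and group, with mean and SD; the dashed line parts the 4 h from the 2 h groups. MT-CO3, MT-ND5, COX8A, NDUFB5 and NDUFV1 are higher and NDUFAF1 lower in the 30 nM CDK-TCIP1 groups than in all control libraries of the same time; NDUFB3 overlaps with the controls at 4 h.

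Nuclear subunits also rose at 4 h, in smaller proportion than the mitochondrial genes. Against DMSO, 32 of 94 nuclear members rose and 4 fell, with a median of 0.16. The 4 that fell were all assembly factors. Of the 81 tested genes listed as structural subunits, 31 rose and 0 fell. COX7A2L and UQCRHL are among the 31. Against Neg1, 22 nuclear members rose and 2 fell (median 0.12), and against Neg2, 13 rose and 3 fell (median 0.05), where 14.4% of all genes were called higher and 16.8% lower. The 13 higher calls are thus near the background share. The same 9 genes rose in all 3 comparisons: COX8A, COX7A2L, NDUFB5, NDUFV1, NDUFS8, UQCRC2, SDHC, ATP5PD and NDUFAF3. The share of all genes higher in all 3 is not given here, so these 9 cannot be read against it. The count against DMSO fell to 18 without DMSO replicate 2 and to 18 with counts scaled by transcript length. Against Neg1 it fell to 9 and 10 without either Neg1 library. Against Neg2 it was 5 and 6 without either Neg2 library and 8 without CDK-TCIP1 replicate 2, and 2 with length scaling. The lower calls were 1 against Neg1 without Neg1 replicate 1, and against Neg2 they were 0 without Neg2 replicate 2 and 5 without CDK-TCIP1 replicate 3.

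By role, 3 of 7 complex I core subunits rose against DMSO, 9 of 30 supernumerary subunits, 1 of 4 complex II subunits, 6 of 10 complex III genes, 7 of 12 nuclear complex IV subunits and 5 of 18 ATP synthase genes. None of these subunits fell. Complexes III and IV thus held 13 of the 31 subunits called against DMSO. Complex II, at 1 of 4, and ATP synthase, at 5 of 18, were nearer to the 17.5% of all genes. The calls in complexes III and IV were fewer against the control compounds. In complex III 3 of 10 rose against Neg1 and 1 of 10 against Neg2, and in nuclear complex IV 5 and 2 of 12. ATP synthase had 4 and 3 of 18 higher and the complex I core 4 and 3 of 7, where 14.2% and 14.4% of all genes were higher.

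**Figure D3:**
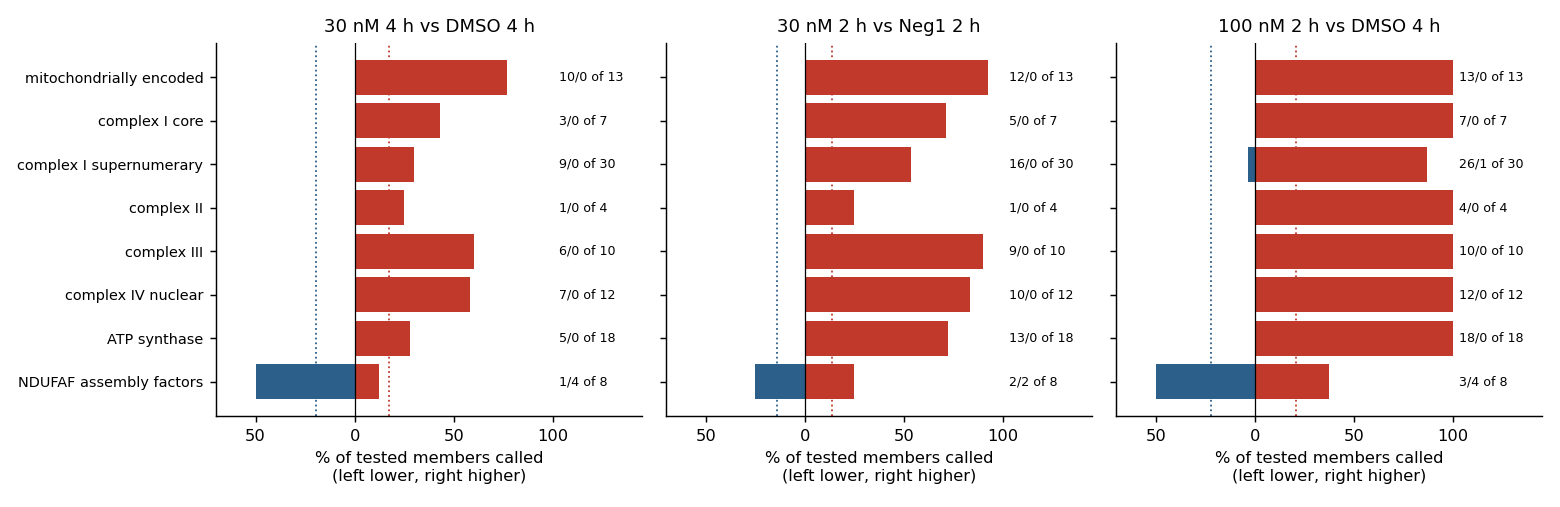
Share of tested members called higher (right) and lower (left) in each role for 3 comparisons, with counts beside each bar and dotted lines at the share of all tested genes called in that direction. Structural roles lie to the right; the NDUFAF assembly factors are split, with 1 higher and 4 lower of 8 at 30 nM and 4 h.

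In complex I, NDUFV1, the core subunit that binds NADH and flavin, had 141, 129 and 130 CPM in DMSO and 172, 188 and 168 CPM in CDK-TCIP1 without overlap. It rose by 0.40 ± 0.071 (adjusted p = 6.89e-05). NDUFS8, a core iron-sulfur subunit, rose by 0.32 ± 0.074 (adjusted p = 0.00134) and NDUFS7, its neighbour in the electron path, by 0.26 ± 0.085 (adjusted p = 0.0188), the latter called in 2 of 6 fits that left out a library. NDUFS1, the largest core subunit, was not called (0.10, adjusted p = 0.173). NDUFB5 (chromosome 3, 179604690 to 179627647), a supernumerary subunit of the membrane arm, had 43.6, 41.8 and 48.8 CPM in DMSO, 68.6, 64.1 and 68.1 CPM in CDK-TCIP1, 53.4 and 51.7 CPM in Neg1 and 47.0 and 52.9 CPM in Neg2. All treated libraries were above all controls. The rise of 0.58 ± 0.072 against DMSO (adjusted p = 5.11e-07) was 0.35 against Neg1 and 0.42 against Neg2.

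In complex II, which also belongs to the citric acid cycle, SDHC, a membrane anchor subunit, went from 64.1, 66.2 and 63.9 CPM to 79.9, 76.6 and 73.8 CPM. The groups did not overlap and the rise was 0.25 ± 0.066 (adjusted p = 0.0043), but it was not called with length-scaled counts (0.17, adjusted p = 0.257). The flavoprotein SDHA (0.09), the iron-sulfur subunit SDHB (-0.06) and the other anchor SDHD (0.11) were not called. In complex III, UQCRC2, a core subunit of the matrix side, had 177, 176 and 177 CPM in DMSO and 209, 206 and 211 CPM in CDK-TCIP1. The 4 h libraries of Neg1 had 166 and 166 CPM and those of Neg2 172 and 174, so the treated libraries stood apart from all controls. Its rise was 0.24 ± 0.046 (adjusted p = 0.000192). Cytochrome c1, encoded by CYC1, was not called (0.11, adjusted p = 0.168), and the Rieske iron-sulfur protein UQCRFS1 was called at 0.14 (adjusted p = 0.0441) but lost the call in 5 of 6 fits without a library.

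UQCRH rose by 0.27 (adjusted p = 0.0295), losing the call in 4 of 6 such fits. Its near-copy UQCRHL had 0.241, 0.384 and 0.455 CPM in DMSO and 1.64, 1.66 and 1.41 CPM in CDK-TCIP1, a log2 fold change of 2.12 ± 0.44 (adjusted p = 0.000369). This was the largest log2 fold change among the members, at a level far below the 225 to 239 CPM of UQCRH and on the shared sequence shown above.

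In complex IV, COX8A (chromosome 11, 63974607 to 63976543), the ubiquitous form of a small membrane subunit, had 121, 126 and 138 CPM in DMSO and 192, 189 and 196 CPM in CDK-TCIP1. Neg1 had 154 and 138 CPM and Neg2 161 and 162. All control libraries of 4 h were below the treated libraries, and Neg1 replicate 2 was level with the highest DMSO library. The rise was 0.59 ± 0.085 against DMSO (adjusted p = 4.84e-06), 0.40 against Neg1 and 0.25 against Neg2. COX7A2L (chromosome 2, 42333546 to 42425088), which holds complexes III and IV together in supercomplexes, had 70.5, 76.8 and 83.8 CPM in DMSO and 98.9, 97.7 and 98.4 CPM in CDK-TCIP1. Neg1 had 79.9 and 73.6 CPM and Neg2 70.7 and 80.4, and no control library reached the treated level. It rose by 0.35 ± 0.068 (adjusted p = 0.000167). With length-scaled counts the value was 0.14 (adjusted p = 0.445), so this call rests on the use of whole-gene counts. COX4I1, the subunit that begins complex IV assembly around MT-CO1, rose by 0.24 ± 0.061 against DMSO (adjusted p = 0.00273). It was not called against Neg2 at 4 h.

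In ATP synthase, ATP5PD, a subunit of the peripheral stalk, went from 69.4, 65.6 and 71.5 CPM to 86.7, 88.1 and 91.3 CPM and rose by 0.37 ± 0.070 (adjusted p = 0.000169). The groups were apart. The subunits ATP5F1A (0.05) and ATP5F1B (0.09) of the catalytic head and the inhibitor ATP5IF1 (0.11) were not called against DMSO at 4 h.

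**Figure D4:**
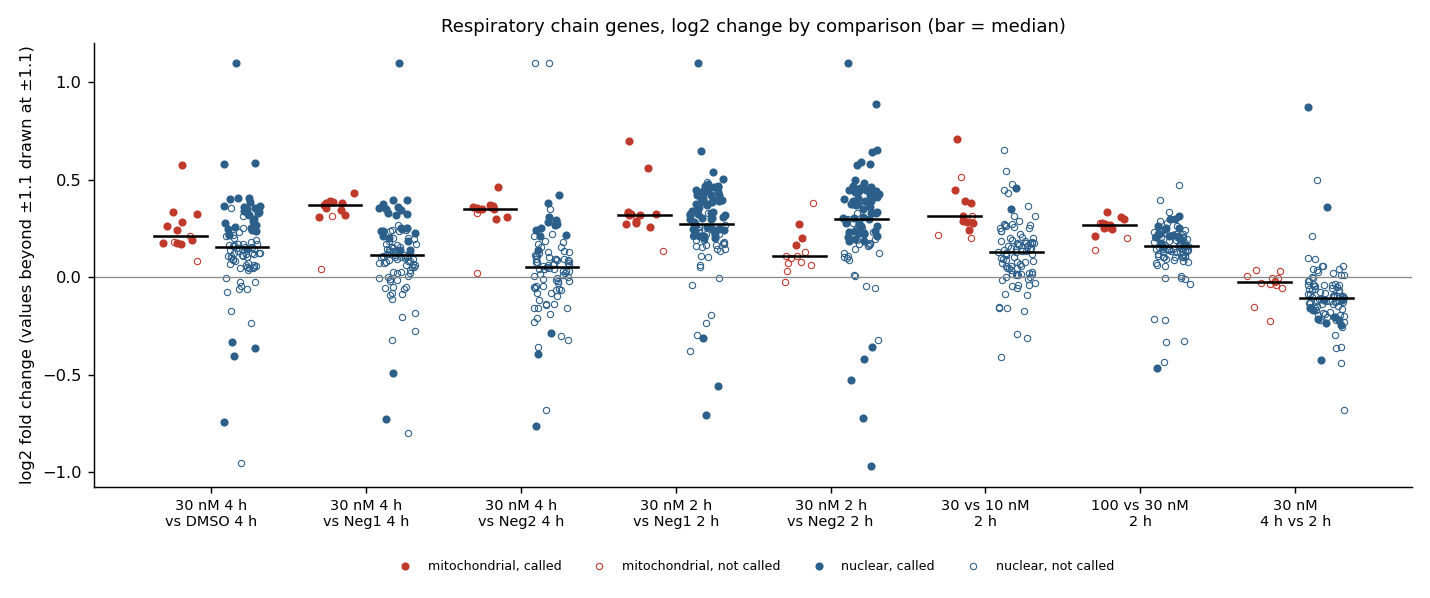
Log2 fold change of each tested member in 8 comparisons, mitochondrial and nuclear members side by side, filled where called; bars are medians, and the 6 values beyond 1.1 are drawn at the edge. The mitochondrial medians are 0.21, 0.37 and 0.35 in the 3 comparisons at 4 h and 30 nM, and the nuclear medians 0.16, 0.12 and 0.05.

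Of the 8 complex I assembly factors 4 fell and 1 rose against DMSO at 4 h, where 19.3% of all genes were called lower and 17.5% higher. With Neg1 as the control 2 fell and 1 rose (16.9% and 14.2%), and with Neg2 3 fell and 1 rose (16.8% and 14.4%). NDUFAF1 and NDUFAF6 were called lower in all 3 comparisons, and NDUFAF4 and NDUFAF5 were not called against Neg1. The share of all genes lower in all 3 is not given here. NDUFAF1 (chromosome 15, 41387349 to 41402519), which helps build the membrane arm of complex I, had 10.3, 11.3 and 10.4 CPM in DMSO, 11.9 and 9.17 CPM in Neg1, 9.22 and 12.5 CPM in Neg2 and 7.41, 6.99 and 4.71 CPM in CDK-TCIP1 at 4 h. All treated libraries were below all controls. It fell by 0.74 on the log2 scale against DMSO (SE 0.178, adjusted p = 0.00176), by 0.73 against Neg1 and by 0.76 against Neg2. The call against DMSO held in every fit that left out a library, while the calls against Neg1 and Neg2 did not. NDUFAF6 went from 26.9, 28.4 and 27.5 CPM to 19.2, 21.8 and 24.7 CPM and fell by 0.33 (adjusted p = 0.00321). NDUFAF5, which modifies a core subunit, fell by 0.40 (adjusted p = 0.00299) and NDUFAF4 by 0.36 (adjusted p = 0.0264). NDUFAF5 was not called with length-scaled counts (adjusted p = 0.0803), and NDUFAF4 was called in 4 of 6 fits without a library. NDUFAF3, the partner of NDUFAF4 in early assembly, went from 34.1, 31.4 and 35.7 CPM to 40.4, 47.1 and 45.0 CPM and rose by 0.39 (adjusted p = 0.00137).

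Called members differed in gene length and level. The 32 nuclear members that rose against DMSO at 4 h had a median span of 9.38 kb and a median DMSO level of 93.5 CPM. The 58 that were not called had 14.8 kb and 76.5 CPM, and the 4 that fell 25.9 kb and 20.6 CPM. Nuclear members as a whole were short, with a median span of 12.6 kb against 32.1 kb over all tested protein-coding genes. The part of gene length or level in the calls was not tested. Of the nuclear members, 50 overlap an annotated gene on the opposite strand, and the strand setting of the counting is not given, so reads of such pairs may be mixed.

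Promoters of nuclear members, from RefSeq on GRCh38.p14, are known for sites of NRF1, ETS factors such as GABP, YY1 and SP1. Windows from 250 bases before to 50 after the start matched 78 members, and short cores were searched on both strands: CATGCGC for NRF1, CCGGAAG for ETS factors and AAGATGG for YY1, with GGGCGG for SP1; the motifs can overlap. The NRF1 core was in 20.5% of the members' promoters and in 4.43% of all 35116 promoters, the ETS core in 26.9% and 10.3%, the YY1 core in 20.5% and 5.84%, and the SP1 core in 57.7% and 45.0%. Among 25 members with a promoter that rose against DMSO at 4 h, 6 held the NRF1 core, 10 the ETS core, 4 the YY1 core and 16 the SP1 core. Among 47 that were tested and not called, the counts were 8, 10, 12 and 28. These are letter matches and not sites, and the differences between the 2 sets were not tested. The 250 bases before the start are printed for COX8A and COX7A2L, which rose, and NDUFAF1, which fell, with matches in capitals.
COX8A promoter, chr11:63974370-63974619, plus strand: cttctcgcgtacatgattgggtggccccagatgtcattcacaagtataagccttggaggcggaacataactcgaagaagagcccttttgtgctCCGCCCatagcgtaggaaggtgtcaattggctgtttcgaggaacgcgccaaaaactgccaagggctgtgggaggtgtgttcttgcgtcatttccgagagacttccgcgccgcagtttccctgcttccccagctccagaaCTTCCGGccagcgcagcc
COX7A2L promoter, chr2:42361218-42361467, minus strand: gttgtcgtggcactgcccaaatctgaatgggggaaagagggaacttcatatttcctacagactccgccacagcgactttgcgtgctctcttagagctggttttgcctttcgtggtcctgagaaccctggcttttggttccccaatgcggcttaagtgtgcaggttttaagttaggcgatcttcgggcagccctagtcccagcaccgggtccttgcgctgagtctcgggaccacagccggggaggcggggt
NDUFAF1 promoter, chr15:41402497-41402746, minus strand: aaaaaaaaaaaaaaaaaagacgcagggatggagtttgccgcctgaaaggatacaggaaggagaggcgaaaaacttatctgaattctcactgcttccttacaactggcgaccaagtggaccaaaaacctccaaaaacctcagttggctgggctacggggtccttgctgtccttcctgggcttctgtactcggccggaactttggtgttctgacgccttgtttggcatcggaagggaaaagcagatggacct
COX8A has the SP1 core on the opposite strand at position -157 and the ETS core on the opposite strand at -18, counted from the start to the first base of the match. The 250 bases printed for COX7A2L and NDUFAF1 hold none of the 4 cores, while the SP1 core lies in the 50 bases after the start of both, which are counted above and not printed.

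At 2 h, with 4 treated libraries in place of 3, the nuclear members were called more widely than at 4 h. Against Neg1, 56 of 94 nuclear members rose and 3 fell (background 13.6% higher and 14.2% lower), with a median of 0.27, and 12 of 13 mitochondrial genes rose with a median of 0.32. Against Neg2, 62 nuclear members rose and 5 fell (14.8% higher and 15.7% lower), with a median of 0.30, but only 3 mitochondrial genes rose, MT-CO3, MT-ND2 and MT-ND5, with a median of 0.11. Structural subunits rose in 54 of 81 against Neg1 and 60 of 81 against Neg2, with 0 lower. Complex III had 9 and 7 of 10 higher, nuclear complex IV 10 and 11 of 12, and ATP synthase 13 and 13 of 18. Of the nuclear members, 46 rose against both compounds, and NDUFAF1, NDUFAF5 and ATP5MF-PTCD1 fell against both. The 2 comparisons share the 4 treated libraries. The share of all genes called in both is not given here. It is at most the 13.6% higher and 14.2% lower against Neg1.

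The 2 h counts depended on single control libraries and on the scaling. None of the 3 mitochondrial genes called against Neg2 kept its call in every fit that left out a library. Nuclear calls against Neg1 fell from 56 to 32 and 28 without Neg1 replicate 1 or 2, and mitochondrial calls from 12 to 7 without replicate 1. Against Neg2 the nuclear calls fell from 62 to 17 without Neg2 replicate 1, the library in which the nuclear members summed to 8981 CPM, the lowest of all libraries, and the mitochondrial members to 57465 CPM. With libraries scaled to their total counts and no TMM factor, the nuclear calls were 37 against Neg1 and 47 against Neg2, and the mitochondrial calls 9 and 1. In that scaling 31.1% of all calls against Neg1 were higher and 37.2% against Neg2, in place of 49.1% and 48.4%. The 3 lower calls against Neg1 became 0 to 1 without either Neg1 library, and the 5 against Neg2 became 2 without Neg2 replicate 1. COX7A2L and NDUFB5 were called in all fits that left out a library, in all 5 comparisons of 30 nM CDK-TCIP1 with a control of the same time.

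NDUFB5 at 2 h had 67.7, 69.8, 60.2 and 65.4 CPM with 30 nM CDK-TCIP1, 45.6 and 49.4 CPM with Neg1 and 49.95 and 50.2 CPM with Neg2, with no overlap. It rose by 0.47 ± 0.078 against Neg1 (adjusted p = 6.38e-05) and by 0.39 ± 0.078 against Neg2 (adjusted p = 0.000354). NDUFV1 had 189, 182, 170 and 193 CPM in the treated libraries, 140 and 135 CPM in Neg1 and 112 and 132 CPM in Neg2, also apart, and rose by 0.42 and 0.59. COX8A had 196, 210, 168 and 194 CPM, against 136 and 128 CPM in Neg1 and 122 and 159 CPM in Neg2, and rose by 0.54 and 0.45. In NDUFAF1 the treated libraries, at 6.10, 5.29, 7.91 and 5.48 CPM, were below Neg1 at 9.18 and 9.06 CPM and Neg2 at 9.42 and 11. It fell by 0.56 (adjusted p = 0.0286) and 0.72 (adjusted p = 0.00408). Neither call held in every fit that left out a library.

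MT-CO1 shows how the mitochondrial genes differed between the 2 control compounds at 2 h. It had 17920, 18262, 19078 and 17235 CPM with 30 nM CDK-TCIP1, 14323 and 15639 CPM with Neg1 and 18197 and 15614 CPM with Neg2. The treated libraries were above Neg1 and overlapped with Neg2 replicate 1. The difference was 0.27 ± 0.068 against Neg1 (adjusted p = 0.00314) and 0.10 ± 0.067 against Neg2 (adjusted p = 0.286). Neg1 and Neg2 themselves differed in 0 members at 2 h (edgeR, and 0 with DESeq2), with 8 of 13 mitochondrial and 3 of 94 nuclear members at an unadjusted p under 0.05 and a mitochondrial median of -0.19.

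The effect of CDK-TCIP1 at 30 nM, measured against the mean of both control compounds, had a log2 value that was lower at 4 h than at 2 h for 8 nuclear members and higher for 0, where this difference was positive for 5.61% and negative for 6.37% of all genes. As 8.51% of the 94 nuclear members tested, the lower calls were near the share of all genes. The 8 were NDUFB3 (-0.51), ATP5IF1 (-0.48), COX7C (-0.43), NDUFS5 (-0.42), ATP5MD (-0.34), NDUFA12 (-0.34), ATP5PF (-0.34) and ATP5MC1 (-0.24). NDUFB3, a membrane arm subunit of complex I, had 63.5, 68.1, 55.1 and 60.3 CPM at 2 h against 48.2 and 44.8 CPM in Neg1 and 36.9 and 56.4 in Neg2. At 4 h it had 56.6, 48.2 and 58.9 CPM against 58.8 and 54.1 CPM in Neg1 and 56.1 and 65.5 CPM in Neg2. The treated libraries were mostly above the controls at 2 h and overlapped with them at 4 h (difference of the effects, SE 0.146, adjusted p = 0.023). COX7C, a small subunit of complex IV, had 225, 271, 211 and 245 CPM at 2 h against 174 and 162 CPM in Neg1, and 210, 186 and 218 CPM at 4 h against 204 and 189 CPM. The number of such members ran from 3 without Neg2 2 h replicate 1 or CDK-TCIP1 2 h replicate 2 to 32 without Neg2 2 h replicate 2, and was 4 both with total-count scaling and with length-scaled counts. No mitochondrial gene was called for this difference (edgeR, and 0 with DESeq2), with 6 of 13 at an unadjusted p under 0.05 and a median of 0.16. With total-count scaling 59.5% of all calls for this difference were positive in place of 46.8%, and 2 mitochondrial genes were called.

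**Figure D5:**
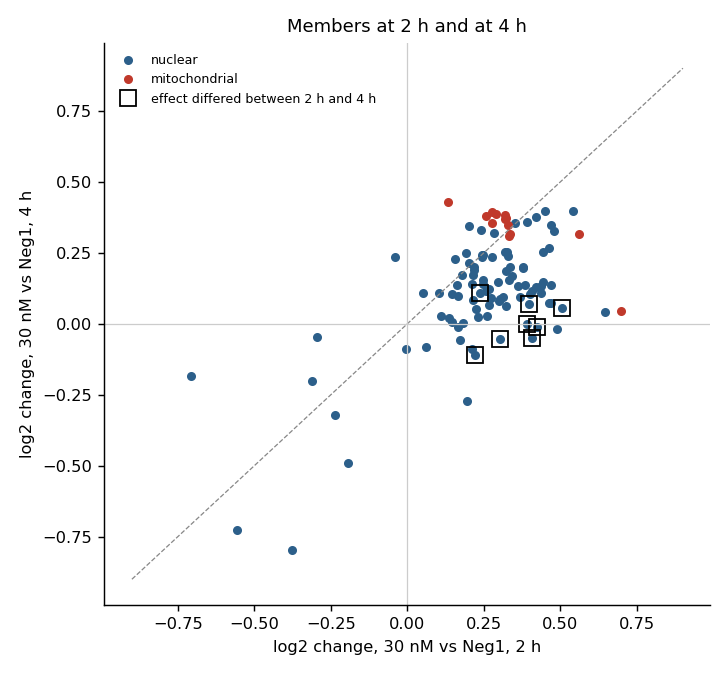
Log2 fold change of 30 nM CDK-TCIP1 against Neg1 at 2 h (horizontal) and 4 h (vertical) for 106 members; UQCRHL lies beyond the axes, and the dashed line marks equal values. Nuclear members lie mostly below the line, among them the 8 boxed ones whose effect against both control compounds differed between the times, and mitochondrial genes lie near it, at medians of 0.32 and 0.37.

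Between the treated groups themselves, 2 nuclear members were higher at 4 h than at 2 h and 10 were lower (10.3% and 11.6% of all genes). Of the 18 ATP synthase genes, 6 were lower, ATP5F1A, ATP5F1B and ATP5F1C of the catalytic head, ATP5MC1, ATP5MD and ATP5PF, by 0.11 to 0.24. ATP5F1A had 682, 677, 664 and 658 CPM at 2 h and 623, 618 and 611 CPM at 4 h, without overlap, and fell by 0.12 (adjusted p = 0.0328). The 10 lower calls became 1 without CDK-TCIP1 2 h replicate 2 or 4 h replicate 2, and 0 with total-count scaling or length-scaled counts. No mitochondrial gene was called (edgeR, and 0 with DESeq2), 0 of 13 were at an unadjusted p under 0.05, and the median was -0.03 (0.03 with total-count scaling). In that scaling 61.1% of all calls were higher at 4 h in place of 47.0%. The read-through locus ATP5MF-PTCD1, whose reads are shared with ATP5MF and PTCD1, had 5.52, 7.91, 5.37 and 6.58 CPM at 2 h and 12.3, 12.2 and 10.4 CPM at 4 h, and rose by 0.88 (adjusted p = 0.000574). At 4 h it overlapped with DMSO at 15.1, 13.8 and 12 CPM and was not called against it.

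More members were called at 30 and 100 nM than at 10 nM at 2 h. The 30, 100 and 10 nM groups had 4, 3 and 2 libraries, so the counts of calls are not on an equal footing. Against the 4 h DMSO libraries, 10 nM changed 0 of 13 mitochondrial genes (edgeR; 1 lower with DESeq2; 3 at an unadjusted p under 0.05), with a median of -0.07. Of the nuclear members 10 rose and 2 fell (5.93% and 7.12% of all genes), with a median of 0.14. The 10 became 1 to 14 when a library was left out. At 30 nM, 12 mitochondrial genes rose and 0 fell, and 69 nuclear members rose and 4 fell (16.7% and 17.6%), with medians of 0.23 and 0.30. With total-count scaling the counts were 8 and 53, and 37.2% of all calls were higher in place of 48.6%. At 100 nM, all 13 mitochondrial genes rose, and 81 nuclear members rose and 6 fell (20.6% and 22.0%), with medians of 0.51 and 0.47. All 7 complex I core subunits, all 4 of complex II, all 10 of complex III, all 12 nuclear subunits of complex IV and all 18 tested of ATP synthase rose at 100 nM. The 6 that fell were NDUFAF1, NDUFAF4, NDUFAF5, NDUFAF7, NDUFV3 and ATP5MF-PTCD1. All these values set 2 h libraries against DMSO of 4 h. In the control compounds, 4 h against 2 h gave a mitochondrial median of -0.18 and a nuclear median of 0.09, with 0 genes called. Time and compound cannot be told apart in these comparisons.

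The size of the 100 nM values depended on the scaling. TMM factors were 0.88 to 0.939 in the 100 nM libraries and 1.02 to 1.03 in DMSO. With total counts in place of TMM, the median of all genes at 100 nM against DMSO moved from 0.02 to -0.14, the mitochondrial median from 0.51 to 0.35 and the nuclear median from 0.47 to 0.31. In that scaling 12 mitochondrial and 66 nuclear members rose and 7 nuclear members fell, and 30.8% of all calls were higher in place of 48.3%. The members' medians stayed above that of all genes in both.

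Direct comparison of neighbouring doses gave fewer calls. From 10 to 30 nM, 9 mitochondrial genes rose and 0 fell, and of the nuclear members COX8A (0.35) and NDUFA7 (0.46) rose and 0 fell (0.800% and 1.82% of all genes). The mitochondrial count was 3 and 2 without either 10 nM library, and the nuclear count 0 to 6 without any 1 library. With total-count scaling 18.8% of all calls of this step were higher in place of 30.5%. From 30 to 100 nM, 10 mitochondrial genes rose and 0 fell, and 16 nuclear members rose and 1, NDUFV3, fell (4.44% and 8.45%). Without 100 nM replicate 1 these became 2 and 1, without 100 nM replicate 3 the nuclear count was 31, and without 30 nM replicates 1 or 3 it was 10 and 7. With total-count scaling the mitochondrial count was 7 and the nuclear count 0, the median of all genes moved from -0.01 to -0.10, and 6.98% of all calls were higher in place of 34.5%.

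MT-CO3 had 7172 and 6115 CPM at 10 nM, 7650, 8534, 8109 and 8089 CPM at 30 nM and 10476, 8394 and 9225 CPM at 100 nM. The 10 nM libraries were below all 30 nM libraries, while 30 and 100 nM overlapped. NDUFV1 had 242, 219 and 194 CPM at 100 nM, above the 170 to 193 CPM of the 30 nM libraries, and rose by 0.25 over that step (adjusted p = 0.0126). ATP5MF-PTCD1 had 7.87 and 8.88 CPM at 10 nM and 3.21, 4.51 and 6.35 CPM at 100 nM, where it was 1.55 lower than DMSO on the log2 scale (log2 fold change -1.55, adjusted p = 5.38e-07). NDUFAF1 was already at 6.94 and 7.01 CPM at 10 nM, below the DMSO libraries, and had 6.79, 5.80 and 8.25 CPM at 100 nM, so its level did not separate the doses.

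Neg1 and Neg2 changed no member that passed the test. In each of the 5 comparisons of Neg1 at 4 h with DMSO, Neg2 at 4 h with DMSO, Neg1 with Neg2 at either time and the 2 compounds at 4 h with 2 h, 0 members were called with edgeR and 0 with DESeq2, where 0% of all genes were called in either direction. At an unadjusted p under 0.05 there were 10 of 107 members for Neg1 and 25 for Neg2 against DMSO, 1 between the compounds at 4 h, 11 at 2 h, and 31 between the times. Between the times, 11 of 13 mitochondrial genes were under 0.05, with a median over the 13 of -0.18 at 4 h against 2 h. Among the 94 nuclear members 20 were, with a median over the 94 of 0.09. Mitochondrial medians against DMSO were -0.13 for both, and nuclear medians 0.04 for Neg1 and 0.13 for Neg2. Without Neg2 2 h replicate 2, 3 members were called between the compounds at 2 h and 12 between the times.

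At 4 h the ratio of the mitochondrial to the nuclear sum was higher with CDK-TCIP1 than with either control compound and overlapped with DMSO. On the log2 scale it was 2.35 ± 0.14 in DMSO (SD, n = 3), 2.44 ± 0.027 with CDK-TCIP1 at 4 h (n = 3), 2.24 ± 0.069 with Neg1 and 2.18 ± 0.026 with Neg2 at 4 h (n = 2 each). The treated libraries, at 2.41 to 2.46, overlapped with DMSO at 2.20 to 2.47 and were above Neg1 at 2.19 to 2.29 and Neg2 at 2.16 to 2.19. At 2 h the ratio was 2.19 ± 0.058 at 10 nM (n = 2), 2.35 ± 0.096 at 30 nM (n = 4) and 2.43 ± 0.10 at 100 nM (n = 3), against 2.33 ± 0.10 with Neg1 and 2.52 ± 0.22 with Neg2 (n = 2 each). The 2 libraries of 10 nM were below all other libraries of 2 h, and the other groups of 2 h overlapped.

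Genes that act on the chain without being members moved in both directions at 4 h against DMSO, and their counts read against the 17.5% of all genes called higher and 19.3% lower. In a list of 43 genes, which holds further assembly factors and CYCS, the electron carrier cytochrome c, 10 rose and 12 fell, CYCS among the latter (-0.13, adjusted p = 0.0462). TMEM70, needed for ATP synthase assembly, went from 74.9, 73.1 and 81.3 CPM to 49.8, 46.1 and 45.4 CPM, with no overlap. Its log2 fold change was -0.70 ± 0.059 (adjusted p = 1.08e-09). BCS1L, which inserts UQCRFS1 into complex III, fell by 0.66, while the complex IV factors COX19 and COA5 rose by 0.65 and 0.61. Of 18 genes of mitochondrial RNA processing, 6 rose and 4 fell, among them FASTK (0.54), FASTKD5 (0.48), FASTKD2 (-0.70) and PNPT1 (-0.34). Of 15 genes of mitochondrial transcription and DNA maintenance, 2 rose and 3 fell, near those shares. The packaging and transcription factor TFAM went from 233, 240 and 243 CPM to 195, 182 and 190 CPM and fell by 0.34, but was not called with length-scaled counts (log2 fold change -0.06, adjusted p = 0.604). The polymerase POLRMT was not called (-0.06). Of 10 nuclear regulators, 3 rose and 3 fell, with SP1 at 0.44, GABPA at 0.26, GABPB1 at -0.37 and the coactivator PPARGC1B at -0.69, and NRF1 was not called (-0.11).

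Markers of the labelled cell type moved with the 4 h result. The 6 B cell markers summed to 2151 to 2259 CPM in DMSO and 1796 to 1968 CPM in CDK-TCIP1 at 4 h, and 3 germinal centre markers to 750 to 786 and 589 to 614 CPM. Markers of T and NK cells, myeloid cells, erythroid cells, epithelium and fibroblasts summed to at most 3.67 CPM in any library. The erythroid marker ALAS2, the enzyme that starts heme synthesis in red cell precursors, had 0.864, 1.88 and 0.329 CPM in CDK-TCIP1 at 4 h and 0.040, 0 and 0.202 CPM in DMSO, and was called higher against DMSO (log2 fold change 3.62, adjusted p = 0.00448), Neg1 and Neg2. The haemoglobin genes HBA1 and HBB were at 0 in those 3 CDK-TCIP1 libraries. The part of these markers in the result was not tested. Library totals ran from 17396484 to 26373153 estimated counts.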

How the data were processed

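RNA of 23 SUDHL5 libraries was quantified by the authors with kallisto, after FastQC and cutadapt, per the submitters' processing notes, which also list DESeq2. For the strand setting, genome build and transcript annotation, the entry is: not given in the sources used here. Deposited files hold kallisto's estimated counts and TPM per transcript. Estimated counts were summed to genes with GENCODE 29 (GRCh38), which may not be the authors' annotation; 1.164 to 1.275% of counts were on transcripts without a match. Sums were rounded and tested with edgeR 4.0.16 (R 4.3.3): TMM scaling, filterByExpr, quasi-likelihood F test, all 23 libraries in 1 fit with a coefficient per group and 14 residual degrees of freedom, and Benjamini-Hochberg adjustment over 17743 genes at 0.05. The SE of a log2 fold change is its size over the square root of F. Authors' TPM values served for levels per length and for length-scaled counts. Library totals were 17396484 to 26373153, and replicate libraries differed by more than counting noise (chi-square per degree of freedom 4.32 to 14.21). The replicate numbers did not pair the libraries (78 pairs, r from -0.044 to 0.044). Scripts were tested on simulated counts.

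Alternatives were DESeq2 1.42.0, its size factors, no filter, only the groups compared, a replicate block, length-scaled counts, scaling without mitochondrial genes, added pseudogene copies, and fits without single libraries or without 2 libraries that earlier work singled out. Total-count scaling was chosen after seeing the data. The members, lists and promoter motifs were chosen with earlier results of these data known. Named genes were every mitochondrial member, in each role the 2 called members with the largest rise and fall at 30 nM (4 h against DMSO; 2 h against both control compounds), the highest and lowest member of each role by TPM, and a set of central subunits; in each list outside the members the same rule was used at 4 h. UQCRC2, NDUFB3, NDUFA12, NDUFS5, NDUFAF4, NDUFAF6, NDUFAF7, ATP5F1C, ATP5MC1, ATP5MF-PTCD1 and ATP5PF lie outside this rule and were chosen after their values were seen.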

Additional observations from a re-analysis of the deposited data

Results flagged for a closer look

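In the 4 libraries of 30 nM CDK-TCIP1 at 2 h, 54 named members were checked for a library far from the others by Dixon's criterion, and 4 had one; chance gives about 1 in 20. MT-ND6 was low in replicate 3 at 495.3 CPM against 534 to 538 CPM in the others. In the same library MT-ND5 was high at 3329 CPM against 3007 to 3044 CPM, and UQCRH low at 210.1 CPM against 249 to 254 CPM. UQCRHL was low in replicate 1 at 0.595 CPM against 1.22 to 1.35 CPM.

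The effect of 30 nM CDK-TCIP1 against the mean of both control compounds differed between 4 h and 2 h for 8 members, by an interaction term in edgeR with Benjamini-Hochberg adjustment. These were 8.51% of the nuclear members tested, near the 6.37% of all genes with a lower effect at 4 h. The log2 differences were -0.507 for NDUFB3 (adjusted p = 0.023), -0.48 for ATP5IF1 (0.0356), -0.435 for COX7C (0.0169), -0.421 for NDUFS5 (0.00932), -0.345 for ATP5MD (0.0448), -0.344 for NDUFA12 (0.0356), -0.34 for ATP5PF (0.0166) and -0.241 for ATP5MC1 (0.023). All 8 values were lower at 4 h, and their number depended on single libraries, treated as well as control, and on the scaling of the counts.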

How the results depend on the processing

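No called result reversed its direction under the alternatives run. Counts of called members that moved by more than 1.5 times follow. Leaving out 1 library gave, at 30 nM and 4 h, 5 to 9 mitochondrial and 18 to 31 nuclear higher calls against DMSO, 9 to 21 higher and 1 to 2 lower nuclear calls against Neg1, and 5 to 11 higher and 0 to 5 lower against Neg2. At 2 h it gave 7 to 12 mitochondrial, 28 to 63 higher and 0 to 3 lower nuclear calls against Neg1, and 17 to 65 higher and 2 to 6 lower against Neg2. It gave 1 to 14 higher and 0 to 1 lower nuclear calls for 10 nM, 2 to 9 mitochondrial and 0 to 6 nuclear calls from 10 to 30 nM, and 2 to 10 mitochondrial and 1 to 31 higher and 0 to 2 lower nuclear calls from 30 to 100 nM. For 4 h against 2 h it gave 0 to 1 lower mitochondrial, 1 to 2 higher and 1 to 15 lower nuclear calls, and for the difference of the effects between times 0 to 1 mitochondrial calls either way, 0 to 1 higher and 3 to 32 lower nuclear calls. Between Neg1 and Neg2 at 2 h it gave 0 to 3 calls, and between the times of the control compounds 0 to 12. DESeq2 gave 1 lower mitochondrial call at 10 nM, 4 nuclear calls from 10 to 30 nM, 30 from 30 to 100 nM, and 1 higher and 14 lower for the difference between times. Length-scaled counts gave 18 higher nuclear calls against DMSO, 8 against Neg1, and 2 higher and 1 lower against Neg2 at 4 h, 1 lower against Neg1 at 2 h, 1 lower at 10 nM, 2 mitochondrial and 0 nuclear from 10 to 30 nM, 6 higher and 0 lower from 30 to 100 nM, 1 higher and 0 lower for 4 h against 2 h, and 4 lower for the difference between times. Without the filter there were 5 lower calls against Neg2 at 4 h, 1 higher and 2 lower mitochondrial at 10 nM, 13 nuclear from 10 to 30 nM, 2 lower mitochondrial for 4 h against 2 h, 3 for Neg1 and 8 for Neg2 against DMSO, 4 between the compounds at 2 h, 22 between their times, and 3 higher and 1 lower mitochondrial and 1 higher and 29 lower nuclear for the difference between times. With only the groups compared there were 21 higher and 5 lower nuclear calls against Neg2 at 4 h, 3 lower mitochondrial and 23 higher nuclear at 10 nM, 6 nuclear from 10 to 30 nM, 7 higher and 0 lower from 30 to 100 nM, 4 for Neg2 against DMSO and 1 higher for the difference between times. Total-count scaling gave 5 lower calls against Neg2 at 4 h, 37 higher and 5 lower against Neg1 and 1 mitochondrial against Neg2 at 2 h, 1 lower mitochondrial at 10 nM, 0 higher nuclear from 30 to 100 nM, 0 lower for 4 h against 2 h, and 2 higher mitochondrial and 4 lower nuclear for the difference between times. Without 2 libraries there were 5 lower calls against Neg2 at 4 h, 21 higher against Neg2 at 2 h, 1 lower mitochondrial and 20 higher nuclear at 10 nM, 9 nuclear from 10 to 30 nM, 5 mitochondrial, 0 higher and 0 lower nuclear from 30 to 100 nM, 16 lower for 4 h against 2 h and 5 lower for the difference between times. The replicate block gave 1 lower nuclear call at 10 nM and 1 higher for 4 h against 2 h, and moved no other count by over 1.5 times. The causes were not tested. Groups of 2 libraries and members at a few CPM limit the precision.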
